A study of Mus musculus with 6 samples.

Results

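The expression of 10 genes that bring fatty acids into a fat cell and hold them there was followed from the preadipocyte to the adipocyte state of 3T3-L1 cells. They are Cd36, Lpl, Lmf1, Gpihbp1, Fabp3, Fabp4, Fabp5, Slc27a1, Slc27a4 and Acsl1, 10 of the 54752 genes listed in each table, and they were found by their symbols in the GENCODE M21 annotation. The 3T3-L1 line comes from mouse embryo fibroblasts and is a common culture model of fat cell formation. RNA was sequenced from 3 libraries labelled 3T3-L1 adipocyte and 3 labelled 3T3-L1 preadipocyte. All 6 carried the same strain label (C57BL/6J), tissue label (Embryo), medium text (10% BCS medium, DMI and 10% FBS, with DMI not spelled out) and absence of a treatment, and the source label reads Adipocyte even for preadipocytes, so titles and cell type labels alone separate the groups. The model is a single line in culture without blood vessels, and the labels give no day of harvest and do not say that the replicates of a state grew apart. The p-values therefore speak only for the variation among these 6 libraries, and that variation may be technical.

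Triglyceride in blood lipoproteins is split by lipoprotein lipase, the product of Lpl, which fat and muscle cells make and secrete. LMF1 helps the lipase fold in the endoplasmic reticulum, and GPIHBP1, made by capillary endothelial cells, carries it to the vessel lumen. The released fatty acids are bound at the cell surface by CD36, their uptake is aided by the transport proteins of the SLC27 family, cytosolic FABP proteins carry them in the cell, and ACSL1 joins them to coenzyme A so that they can be stored or burned.

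The libraries held 22496486 to 26314076 expected counts, the estimated reads per gene. The state labels were checked on their marker genes. The summed level of 9 adipocyte markers was 13133 to 16689 TPM (a level per gene length, scaled to the same total in every library) in adipocytes, against 77.3 to 81.3 TPM in preadipocytes, led by Adipoq. The summed level of 6 preadipocyte and fibroblast markers was 289.5 to 369.6 TPM in adipocytes, against 6407 to 7484 TPM in preadipocytes, led by Dlk1. At a Benjamini-Hochberg adjusted p of 0.05 from the quasi-likelihood test of edgeR, 35.7% of the 14726 genes with enough counts were higher in adipocytes and 37.9% were lower, 73.5% in all, so a call alone sets no gene apart. TMM scaling, used for these calls, assumes that most genes keep their level. Against it the median gene moved by -0.33 on the log2 scale under total-count scaling and by -0.48 under limma on log2(TPM + 1), and small differences have to be read with that shift in view. In bulk RNA, fewer cells of a type and less RNA per cell cannot be told apart.

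Of the 10 genes, 8 passed the filter on low counts, and these 8 were higher in adipocytes, beside the 35.7% of all tested genes. The 2 that did not pass, Fabp3 and Gpihbp1, stayed under 2 TPM in every library. The rises fell into 3 ranges on the TMM scale. Cd36, Acsl1 and Fabp4 rose by more than 8 on the log2 scale, which 0.998% of tested genes did. Fabp5 and Lpl rose by about 4, and Slc27a4, Lmf1 and Slc27a1 by 1.53, 1.07 and 0.44. In TPM 7 of the 8 tested genes did not overlap between the states, all of them higher in adipocytes, whereas 79.8% of tested genes did not overlap in either direction and 23.0% did so with adipocytes higher. Each of the 8 would have passed the filter on the libraries of either state alone. Together the 10 genes took 1.95% ± 0.042 of all TPM in adipocytes and 0.0656% ± 0.00034 in preadipocytes (SD, n = 3 each).

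**Figure D1:**
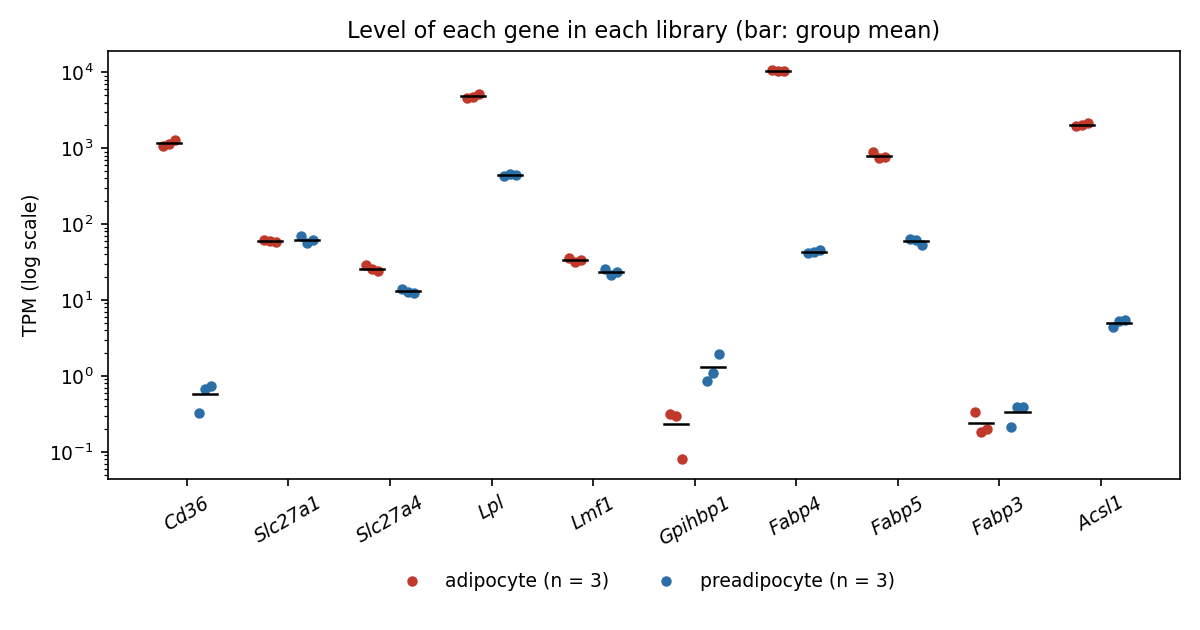
Level in TPM (log axis) of the 10 genes in each of 3 adipocyte (left, red) and 3 preadipocyte (right, blue) libraries, with the group mean as a black bar. Cd36, Acsl1 and Fabp4 lie furthest apart between the states, Slc27a1 overlaps, and Gpihbp1 and Fabp3 stay under 2 TPM in every library.

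The order of the genes by level differed between the states. In adipocytes Fabp4 led with 10525 ± 155 TPM and ranked 10 or 11 among all genes of a library. It was followed by Lpl (4818 ± 262 TPM), Acsl1 (2040 ± 80.5 TPM), Cd36 (1169 ± 113 TPM) and Fabp5 (798.0 ± 86.7 TPM), then by Slc27a1 (59.4 ± 2.15 TPM), Lmf1 (33.6 ± 1.96 TPM) and Slc27a4 (25.95 ± 2.45 TPM), and last by Fabp3 and Gpihbp1 (SD, n = 3 each). Only that last pair of neighbours overlapped in adipocytes. In preadipocytes Lpl led with 447.6 ± 10.0 TPM and ranked between 276 and 294. Slc27a1 (62.0 ± 6.67 TPM) and Fabp5 (59.3 ± 5.92 TPM) came next and overlapped, then Fabp4 (43.4 ± 2.02 TPM), Lmf1 (23.3 ± 1.89 TPM), Slc27a4 (13.0 ± 0.714 TPM) and Acsl1 (5.05 ± 0.512 TPM) (SD, n = 3 each). Gpihbp1, Cd36 and Fabp3 ended the order there, and the ranges of Cd36 and Fabp3 overlapped. Cd36 was thus the fourth of the genes in adipocytes and the ninth in preadipocytes.

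Lpl encodes the secreted lipase (ENSMUSG00000015568.16, chromosome 8, 68880491 to 68907448, plus strand, GRCm38). It had 4589, 4762 and 5105 TPM in adipocyte libraries 1 to 3, against 436.8, 456.6 and 449.3 TPM in preadipocyte libraries 1 to 3. The groups did not overlap and every adipocyte library was about an order of magnitude above every preadipocyte library. The log2 fold change was 3.91 (SE 0.12, edgeR adjusted p = 1.19e-08), higher in 3 of 3 libraries. Lpl was the only one of the 10 genes above 100 TPM in preadipocytes. Its deposited length, which RSEM weights over a gene's transcripts, was shorter in the libraries numbered 1 of both states: 2938, 3545 and 3510 bases in adipocyte libraries 1 to 3, against 3076, 3653 and 3533 bases in preadipocyte libraries 1 to 3. With the effective length of each library as an offset the rise was 3.94, with an SE of 0.075.

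Lmf1, the maturation factor of the lipase (ENSMUSG00000002279.19, chromosome 17, 25579085 to 25662826, plus strand), rose far less than Lpl. It had 35.7, 31.9 and 33.2 TPM in adipocytes, against 25.4, 21.6 and 23.0 TPM in preadipocytes. The groups were apart, with a log2 fold change of 1.07 (SE 0.10, edgeR adjusted p = 1.46e-05), and by 0.51 with limma on log2(TPM + 1), where the call held. Within a library, Lpl exceeded Lmf1 143.4-fold in adipocytes and 19.2-fold in preadipocytes on the TPM scale (geometric means). The log2 ratio was 7.16 ± 0.14 in adipocytes and 4.26 ± 0.15 in preadipocytes (SD, n = 3 each; exact two-sided permutation test, p = 0.1). Such a ratio does not depend on the scaling between libraries, and 0.1 is the smallest p that 3 against 3 libraries allow, also after adjustment over the 10 ratios and shares tested.

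Gpihbp1 encodes the endothelial carrier of the lipase (ENSMUSG00000022579.10, chromosome 15, 75596628 to 75599481, plus strand). It had 4, 4 and 2 expected counts in adipocytes, against 9, 14 and 19 in preadipocytes, too few for the test. In TPM these were 0.31, 0.30 and 0.08 in adipocytes, against 0.86, 1.09 and 1.92 in preadipocytes. Every adipocyte library was thus below every preadipocyte library, the opposite order to Lpl. With no low-count filter edgeR gave a log2 fold change of -1.75 (SE 0.52, adjusted p = 0.0083). Markers of endothelial cells, the cells in which GPIHBP1 acts, were near the floor in both states: their summed level over 7 genes was 0.14 to 0.31 TPM in adipocytes and 0.39 to 0.68 TPM in preadipocytes, Tie1 and Cldn5 were listed at 0 in all libraries, and the most abundant, Pecam1, was not past the threshold (log2 fold change -0.41, edgeR adjusted p = 0.431).

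Cd36 encodes the surface receptor for long-chain fatty acids (ENSMUSG00000002944.15, chromosome 5, 17781690 to 17888801, minus strand). It had 45304, 47653 and 56343 expected counts in adipocytes, against 11, 23 and 26 in preadipocytes, or 1074, 1140 and 1294 TPM against 0.32, 0.68 and 0.73 TPM. Its log2 fold change of 11.49 (SE 0.23, edgeR adjusted p = 2.28e-09) was the largest among the 8 tested genes. Its size leans on 60 preadipocyte counts, and it was 9.54 with limma on log2(TPM + 1), where the pseudocount exceeds every preadipocyte level. Cd36 is also used by macrophages and endothelial cells. The summed level of 7 macrophage markers was 2.30 to 4.21 TPM in adipocytes and 7.94 to 10.4 TPM in preadipocytes, with Adgre1 at 0 in all libraries and Ptprc at 0 in adipocytes. Of the 4 tested, 3 were lower, beside the 37.9% of all tested genes, among them Cd14, the most abundant. Csf1r and Aif1, also lower, passed the filter only through the preadipocytes, where they are high. They had 9.83 and 3 expected counts in adipocytes, against 116.7 and 49 in preadipocytes. Cd68 was not past the threshold (log2 fold change 0.51, edgeR adjusted p = 0.147), while Lyz2, not tested, averaged 0.45 TPM in adipocytes and 0.32 TPM in preadipocytes. Their part in the level of Cd36 was not tested.

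The 2 transport proteins of the SLC27 family differed far less between the states than Cd36. Slc27a4 (ENSMUSG00000059316.2, chromosome 2, 29802634 to 29817522, plus strand), which also has acyl-CoA synthetase activity, had 28.6, 25.5 and 23.8 TPM in adipocytes, against 13.8, 12.9 and 12.4 TPM in preadipocytes. The groups were apart and the rise was 1.53 (SE 0.11, edgeR adjusted p = 2.25e-06), or 0.94 with limma on log2(TPM + 1). Slc27a1, the insulin-responsive transporter FATP1 (ENSMUSG00000031808.7, chromosome 8, 71568882 to 71587302, plus strand), had 61.6, 59.4 and 57.3 TPM in adipocytes, against 69.1, 55.9 and 60.9 TPM in preadipocytes. On this scale the groups overlapped, with the highest and the lowest library both preadipocyte. Scaled with TMM it had 111.5, 101.8 and 94.0 CPM (counts scaled to library size, not per length) in adipocytes, against 89.9, 65.4 and 70.6 CPM in preadipocytes, and passed as higher (log2 fold change 0.44, SE 0.13, edgeR adjusted p = 0.0106). With total counts the change was 0.12 (edgeR adjusted p = 0.381) and with limma on log2(TPM + 1) it was -0.05 (adjusted p = 0.592), so the call was lost under total-count scaling alone, and the sign turned only with limma on TPM, which also changes the test, the length scaling and the pseudocount. Under those settings 26.6% and 22.2% of tested genes were higher.

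The ratio of the pair of transporters within a library does not depend on the scaling between libraries. The TPM ratio of Slc27a1 to Slc27a4 in a library was 2.30 in adipocytes and 4.73 in preadipocytes (geometric means). The log2 ratio was 1.199 ± 0.083 in adipocytes and 2.24 ± 0.11 in preadipocytes (SD, n = 3 each), a difference of -1.04, with no overlap (exact two-sided permutation test, p = 0.1, the smallest possible). Slc27a1 stayed the more abundant of the pair in every library. Cd36 had 45.02 times the TPM of Slc27a4 in adipocytes and 0.0424 times in preadipocytes, so that the order of these transcripts was inverted between the states. The log2 ratio of Cd36 to Slc27a4 was 5.49 ± 0.27 in adipocytes and -4.56 ± 0.72 in preadipocytes (SD, n = 3 each; exact two-sided permutation test, p = 0.1).

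**Figure D2:**
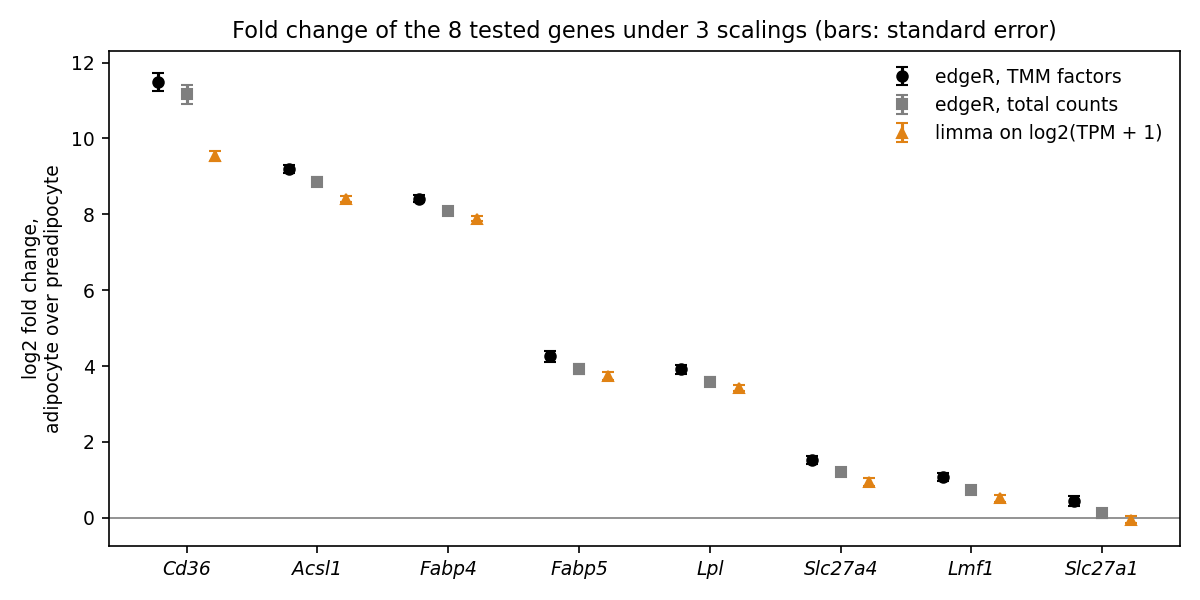
Log2 fold change, adipocyte over preadipocyte, of the 8 tested genes with TMM factors, total counts and limma on log2(TPM + 1), with standard errors. All 8 values are lower under both alternatives, and Slc27a1 alone comes near 0, at 0.44, 0.12 and -0.05.

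The cytosolic carriers changed in level and in make-up. Fabp4, the adipocyte carrier also called aP2 (ENSMUSG00000062515.3, chromosome 3, 10204088 to 10208576, minus strand), had 10669, 10362 and 10545 TPM in adipocytes, against 41.3, 43.5 and 45.4 TPM in preadipocytes. The spread within each state was small beside the gap, and the rise was 8.41 (SE 0.093, edgeR adjusted p = 5.56e-10), higher in 3 of 3 libraries. Fabp5, a carrier first known from skin (ENSMUSG00000027533.10, chromosome 3, 10012548 to 10016607, plus strand), had 897.6, 739.1 and 757.2 TPM in adipocytes, against 64.2, 61.0 and 52.7 TPM in preadipocytes. It rose by 4.26 (SE 0.14, edgeR adjusted p = 1.73e-08), with library 1 the highest in each state. Fabp3, the carrier of heart and skeletal muscle (ENSMUSG00000028773.8, chromosome 4, 130308595 to 130315463, plus strand), had 4, 2 and 2.37 expected counts in adipocytes, against 2, 3.45 and 3.73 in preadipocytes. Its groups overlapped at 0.18 to 0.33 TPM in adipocytes and 0.21 to 0.39 TPM in preadipocytes, and with no low-count filter the log2 fold change was 0.11 (SE 0.77, edgeR adjusted p = 0.929), so no difference was detectable at this depth.

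Fabp4 made up 92.2%, 93.3% and 93.3% of the summed TPM of the 3 carriers in adipocytes, against 39.1%, 41.5% and 46.1% in preadipocytes. Fabp5 made up 7.76%, 6.66% and 6.70% in adipocytes, against 60.7%, 58.1% and 53.6% in preadipocytes. Fabp5 was therefore the leading carrier transcript in every preadipocyte library and Fabp4 in every adipocyte library, although both rose. The share of Fabp4 was 92.96% ± 0.62 in adipocytes and 42.2% ± 3.55 in preadipocytes (SD, n = 3 each; exact two-sided permutation test, p = 0.1). The ratio of Fabp4 to Fabp5 was 13.2 in adipocytes and 0.734 in preadipocytes (geometric means). Fabp3 held 0.0021% ± 0.00067 of the sum in adipocytes and 0.32% ± 0.11 in preadipocytes (SD, n = 3 each).

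**Figure D3:**
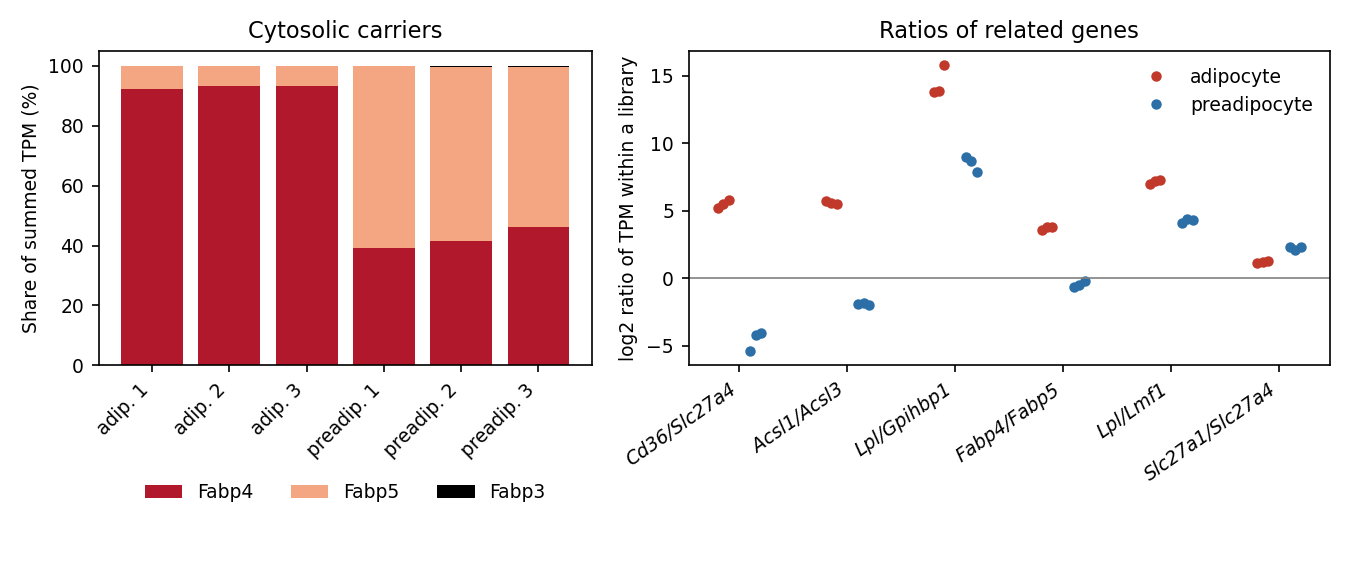
Left, share of Fabp4, Fabp5 and Fabp3 in their summed TPM in each library, and right, log2 ratios of TPM within a library for 6 pairs of genes (adipocyte red, preadipocyte blue). Fabp4 holds at least 92.2% in adipocytes and at most 46.1% in preadipocytes. None of the 6 ratios overlaps between the states, where 79.8% of single tested genes did not overlap in TPM either. The ratio of Lpl to Gpihbp1 rests on 10 expected counts of Gpihbp1 in adipocytes and 42 in preadipocytes.

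Fabp5 and Fabp4 lie in 1 cluster on chromosome 3, with 187 kb between them. The carrier genes between them were nearly silent: Pmp2 (10179851 to 10183929) had 2 expected counts in adipocytes and 2 in preadipocytes, and Fabp9 (10193621 to 10197283) had 2 in adipocytes and 0 in preadipocytes. Fabp12, beyond Fabp4 (10244209 to 10301183), had 13 in adipocytes and 0 in preadipocytes, at least 5.02-fold higher on a floor of 3 counts over the 3 preadipocyte libraries, a bound that covers counting error only. Reads of close copies limit some of these values. A processed pseudogene, Gm6166, shares 7.24% of the 31-base words of Fabp5 transcripts, and its expected counts were 7.39% to 8.16% of those of Fabp5 in adipocytes and 8.47% to 9.30% in preadipocytes. Adding them to Fabp5 gave a log2 ratio of mean CPM of 4.24, against 4.26 for Fabp5 alone. Fabp3 shares 35.2% of its words with Fabp3-ps1 and overlaps Zcchc17 on the other strand, which leaves its few counts uncertain.

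Acsl1 encodes the main long-chain acyl-CoA synthetase of fat cells (ENSMUSG00000018796.13, chromosome 8, 46471037 to 46536051, plus strand). It had 1968, 2024 and 2127 TPM in adipocytes, against 4.46, 5.28 and 5.40 TPM in preadipocytes. The groups stood far apart, with a log2 fold change of 9.19 (SE 0.11, edgeR adjusted p = 5.56e-10), higher in 3 of 3 libraries. Gm45244, an unclassified transcript on the other strand that overlaps Acsl1 and shares 9.46% of the 31-base words of Acsl1 transcripts, had 49.3, 53.2 and 78.5 expected counts in adipocytes and none in preadipocytes. Acsl3, a synthetase of the endoplasmic reticulum and lipid droplets, was the more abundant of the pair in preadipocytes, where the TPM ratio of Acsl1 to Acsl3 was 0.267, whereas it was 48.6 in adipocytes (geometric means). The log2 ratio was 5.60 ± 0.13 in adipocytes and -1.90 ± 0.079 in preadipocytes (SD, n = 3 each; exact two-sided permutation test, p = 0.1).

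Starts of Cd36 and Acsl1, with the largest rises, and of Slc27a4 and Slc27a1, with small rises, are printed so that they can be compared. RefSeq's promoter table on GRCm38.p6 held 6 of the 10 genes, and Lpl, Gpihbp1, Fabp4 and Fabp5 have no entry. Given are the 250 bases before a start, 5′ to 3′ on the gene's strand, for 5 of the 6 windows that touch no GENCODE exon. The window of Lmf1, which rose less than Slc27a4, touches an exon and is not printed. The printed Cd36 start is internal, as it lies within the span of the gene given above. Capitals mark matches on either strand to GGGCGG (a GC box), CCAAT, or AGGTCA (the hexamer bound by nuclear receptors).
Cd36, chr5:17835897-17836146, minus strand: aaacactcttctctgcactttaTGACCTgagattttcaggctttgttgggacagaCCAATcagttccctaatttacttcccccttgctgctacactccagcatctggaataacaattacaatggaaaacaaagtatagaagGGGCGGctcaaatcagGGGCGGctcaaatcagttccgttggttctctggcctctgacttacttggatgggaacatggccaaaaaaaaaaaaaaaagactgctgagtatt
Acsl1, upstream start, chr8:46470787-46471036, plus strand: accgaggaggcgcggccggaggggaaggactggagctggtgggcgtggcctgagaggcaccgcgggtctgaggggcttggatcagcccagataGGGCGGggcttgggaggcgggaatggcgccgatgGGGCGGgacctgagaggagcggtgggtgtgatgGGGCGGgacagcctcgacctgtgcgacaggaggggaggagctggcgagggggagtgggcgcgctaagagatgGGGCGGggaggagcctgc
Acsl1, internal start, chr8:46490716-46490965, plus strand: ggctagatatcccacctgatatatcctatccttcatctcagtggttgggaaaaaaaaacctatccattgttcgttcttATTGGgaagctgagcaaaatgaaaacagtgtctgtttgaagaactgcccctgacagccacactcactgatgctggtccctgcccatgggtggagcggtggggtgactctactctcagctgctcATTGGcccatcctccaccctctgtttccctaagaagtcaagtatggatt
Slc27a4, chr2:29802384-29802633, plus strand: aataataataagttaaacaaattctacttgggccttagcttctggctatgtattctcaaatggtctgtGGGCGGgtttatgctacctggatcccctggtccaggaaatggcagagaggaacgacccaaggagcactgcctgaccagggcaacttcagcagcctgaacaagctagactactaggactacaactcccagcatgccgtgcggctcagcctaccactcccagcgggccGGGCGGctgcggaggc
Slc27a1, chr8:71568621-71568870, plus strand: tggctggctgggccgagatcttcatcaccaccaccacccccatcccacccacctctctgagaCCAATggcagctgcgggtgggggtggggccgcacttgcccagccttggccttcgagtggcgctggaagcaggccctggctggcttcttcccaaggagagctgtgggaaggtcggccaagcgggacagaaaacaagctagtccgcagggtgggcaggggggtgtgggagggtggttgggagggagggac

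No motif was found in all 5 windows. GC boxes were in the Cd36, upstream Acsl1 and Slc27a4 windows, and CCAAT was in the Cd36, internal Acsl1 and Slc27a1 windows. The Cd36 window had a GC content of 43.2% with 3 CpG dinucleotides, 2 GC boxes, 1 CCAAT and 1 AGGTCA on the opposite strand at position -228. The upstream Acsl1 window had 72.0% GC, 20 CpG and 4 GC boxes. The internal Acsl1 window had 48.4% GC, 2 CpG and 2 CCAAT matches on the opposite strand. The gene-level values do not say which start was used, for Cd36 and Slc27a1 as for Acsl1. The Slc27a4 window held 2 GC boxes at 54.4% GC, and the printed Slc27a1 window held 1 CCAAT at 66.4% GC. A further Slc27a1 window that is not printed, chr8:71570344-71570593, held 1 CCAAT and 3 GC boxes at 58.4% GC. Over all 32851 windows of this table the median GC content was 52.4%, and GGGCGG was found in 32.7%, CCAAT in 33.8% and AGGTCA in 14.0%. The direct repeat DR1, a pair of AGGTCA hexamers with 1 base between them (0.0335% of all windows), TTGCNNAA (9.56%) and TATAAA (12.4%) had no match in the 9 windows of the 6 genes, all searched on both strands, with AGGTCA also counted inside the repeat. A match or its absence describes the letters of a window only.

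Around the lipase, genes of its partners and regulators went both ways. Of 19 listed genes 12 were tested, of which 7 rose and 4 fell, beside the 35.7% higher and 37.9% lower of all tested genes. The median log2 fold change was 2.58 against -0.06 over all tested genes. But the 7 include Angptl8, Apoc2 and Apoc3, which passed the filter only through the adipocytes, where they are high. Over the other 9 tested genes the median was -0.04. Among these Sel1l, Apoc1, Apoc4 and Sort1 rose and Lmf2, Sdc1, Hspg2 and Furin fell. Angptl8, an inhibitor of the lipase that works with other ANGPTL proteins, had 2565 expected counts in adipocytes and 3 in preadipocytes, a ratio of 991.0 (exact 95% Poisson interval of the preadipocyte count 339.1 to 4805). Of the 5 apolipoprotein genes listed, 4 rose and Apoa5 had no count in any library. Apoc1 had 1203, 1533 and 1658 TPM in adipocytes, against 10.3, 14.1 and 14.7 TPM in preadipocytes, and rose by 7.33 (SE 0.16, edgeR adjusted p = 2.89e-09). Apoc2, the activator of the lipase, had 173.65 expected counts in adipocytes and 6 in preadipocytes, and Apoc3, which inhibits it, had 170 in adipocytes and 0 in preadipocytes, at least 65.7-fold higher. The list's median is the same with Apoc3 at that bound. Apoc4, of the same gene cluster, rose by 4.82 (SE 0.15) with TMM. Its size depends on the setting, from 4.50 to 7.10 over 18 alternatives, a range that the SE does not cover. Sort1, a sorting receptor that binds the lipase, rose by 5.66 (SE 0.091). Angptl4, an inhibitor of the lipase, was not past the threshold with TMM (log2 fold change -0.04, edgeR adjusted p = 0.725) but passed as lower under total-count scaling (-0.37) and under limma on log2(TPM + 1) (-0.57). Sdc1, a heparan sulfate proteoglycan of the cell surface, fell by 1.01 (log2, SE 0.098), and Hspg2, the proteoglycan perlecan, fell by 0.94 (SE 0.074). Lmf2, the relative of Lmf1, had 15.3, 14.7 and 12.7 TPM in adipocytes, against 34.9, 29.0 and 30.9 TPM in preadipocytes, and fell by 0.62 (SE 0.11, edgeR adjusted p = 0.000698), while Lmf1 rose. The remaining calls were near 0: Sel1l, an endoplasmic reticulum factor for the lipase, was higher by 0.34 with TMM but -0.14 with limma on log2(TPM + 1), and the protease gene Furin was lower by a log2 fold change of -0.24.

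Among 14 listed partners of uptake at the surface and lipoprotein receptors, 13 were tested, of which 8 rose and 4 fell, where 73.5% of all tested genes were called in either direction. The median log2 fold change was 0.87. Cav1 encodes the coat protein of caveolae, the membrane pits in which CD36 is found. It had 1555, 1392 and 1579 TPM in adipocytes, against 340.7, 329.3 and 351.4 TPM in preadipocytes, and rose by 2.59 (SE 0.086, edgeR adjusted p = 1.81e-08). Cavin1, which shapes the same pits, was not past the threshold with TMM (log2 fold change 0.01, edgeR adjusted p = 0.939) and passed as lower under total-count scaling (-0.32). Scarb1, the lipoprotein receptor related to CD36, rose by 4.01 (SE 0.13, edgeR adjusted p = 1.88e-08). The enzymes that put palmitate on CD36 went apart, with Zdhhc5 up by 0.87 (SE 0.072) and Zdhhc4 lower by a log2 fold change of -0.36 (SE 0.12, edgeR adjusted p = 0.0207), a call lost without 4 single libraries and with RLE factors (adjusted p = 0.060). The kinase gene Fyn fell by 2.97 (SE 0.094), and the receptor gene Lrp1 fell by 1.92 (SE 0.078), while the receptor gene Vldlr rose by 1.04 (SE 0.071). Got2, a mitochondrial aminotransferase once described as a fatty acid binder of the plasma membrane, fell by 0.76 (SE 0.15).

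Relatives of the carriers and transporters were mostly near silent, but those of Acsl1 were not. Under 1 TPM in every library were 10 of 13 other intracellular lipid-binding proteins and 3 of 4 other SLC27 genes. Only 1 of 5 other long-chain acyl-CoA synthetases was as low. Of 13 other intracellular lipid-binding proteins, 2 were tested. Dbi, which binds acyl-CoA, rose by 3.15 (SE 0.078) to 2056 to 2285 TPM in adipocytes, against 334.9 to 361.4 TPM in preadipocytes. Fabp1, Fabp6, Crabp1 and Rbp2 had no count in any library. Of the 4 other SLC27 genes Slc27a3 alone was tested and fell by 1.70 (SE 0.16), with 1.83, 2.89 and 3.28 TPM in adipocytes, against 11.8, 11.4 and 10.3 TPM in preadipocytes. Among 5 other long-chain acyl-CoA synthetases Acsl3 rose by 1.57 (SE 0.11), Acsl5 and Acsbg1 fell by 0.59 and 1.69, Acsl4 was not past the threshold (log2 fold change -0.30, edgeR adjusted p = 0.201) and Acsl6 had no count, with a median of -0.44 over the 4 tested. With the replicate number as a block Acsl4 was called lower at nearly the same size (-0.32, edgeR adjusted p = 0.00158), and it was also called lower under total-count scaling (-0.63, adjusted p = 0.023) and under limma on log2(TPM + 1) (-0.79, adjusted p = 0.014).

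**Figure D4:**
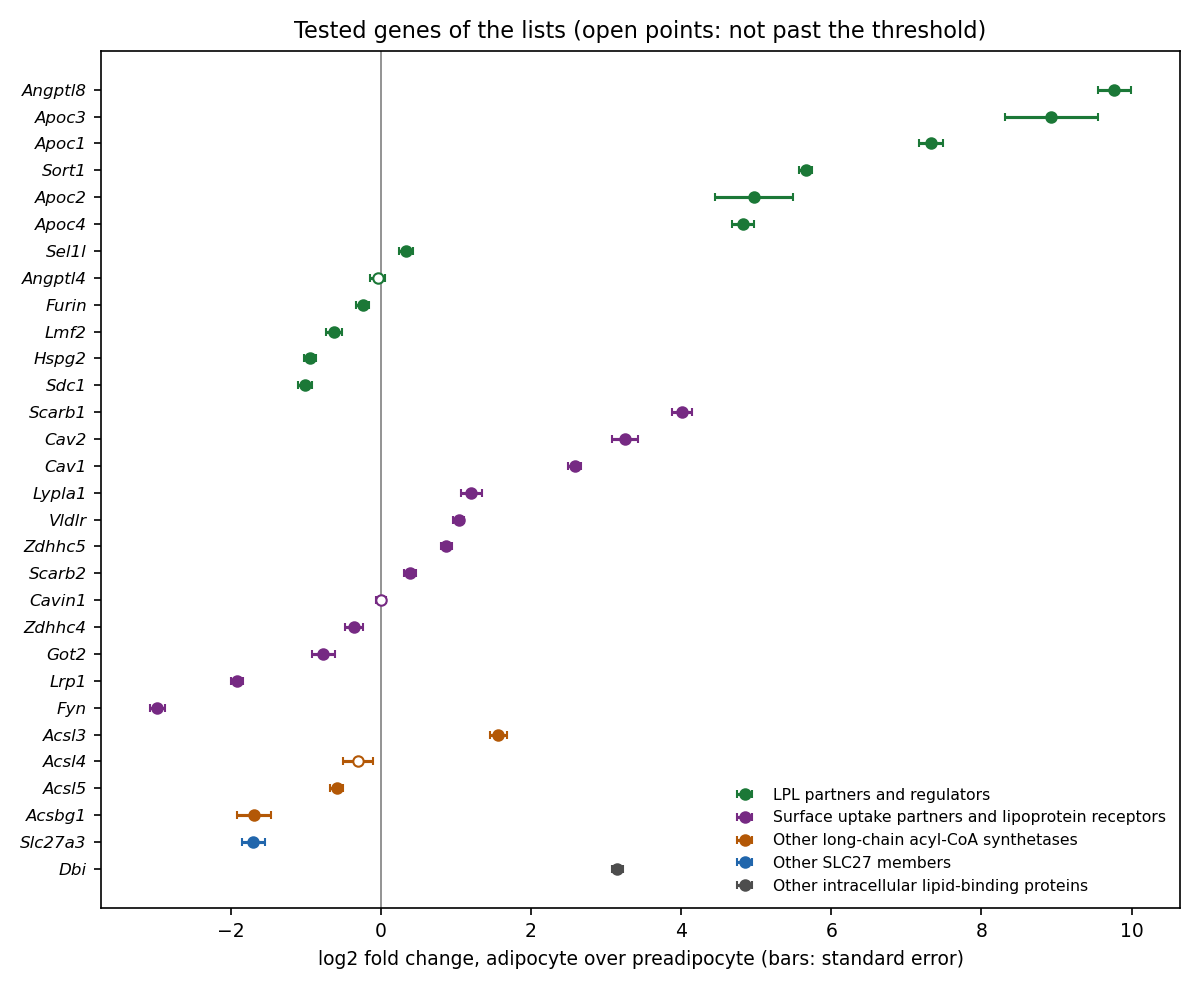
Log2 fold change, adipocyte over preadipocyte, with standard errors for tested genes of the 5 lists around the 10 genes, open points not past the threshold. The lipase list runs from 9.77 for Angptl8 to -1.01 for Sdc1, and the fitted values of Angptl8 and Apoc3 rest on 3 and 0 preadipocyte counts.

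Fabp3 was also set beside markers of the cells that use it. The summed level of 8 muscle markers, for Fabp3, was 0.09 to 0.25 TPM in adipocytes and 0.73 to 1.51 TPM in preadipocytes, with Tnnt2 the most abundant and Ckm, Myh4 and Myod1 at 0. The summed level of 5 brown adipocyte markers was 197.7 to 209.9 TPM in adipocytes and 10.4 to 12.2 TPM in preadipocytes. Of these 3 were tested and rose, beside the 35.7% of all tested genes. Cox7a1 had 177.2 to 189.3 TPM in adipocytes and 0 to 0.68 TPM in preadipocytes. It passed the filter, as did Cidea, only through the adipocytes, where both are high. Over the preadipocyte libraries they had 4 and 1 expected counts. Ppargc1a, well counted in both states, rose by 1.22 (SE 0.094). Ucp1 had 1 expected count in adipocytes and 0 in preadipocytes, and Dio2 had 1 in adipocytes and 3 in preadipocytes. Fabp3, abundant in brown fat, was at 0.18 to 0.33 TPM in adipocytes.

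Each gene was last set beside the tested gene whose log2(TPM + 1) values over the 6 libraries lay nearest to its own. For Fabp4 this was Scd1, a fatty acid desaturase, with 10317 TPM in adipocytes and 48.9 TPM in preadipocytes on average (Euclidean distance 0.37 over 6 libraries). For Cd36 it was G0s2, an inhibitor of triglyceride lipase (759.8 TPM in adipocytes and 0.743 TPM in preadipocytes, distance 1.303), for Lpl the glycolytic gene Aldoa (4547 TPM in adipocytes and 639.2 TPM in preadipocytes, distance 1.01), and for Acsl1 Apoc1 (1465 TPM in adipocytes and 13.0 TPM in preadipocytes, distance 2.27). The genes of small change had closer neighbours, at distances of 0.13 for Lmf1 (Zfp219), 0.16 for Slc27a4 (Elmod3) and 0.17 for Slc27a1 (Alkbh3). Fabp5 lay nearest to Gm10053 (0.49), Gpihbp1 to Casq2 (0.38) and Fabp3 to Chrna2 (0.15), the last pairs at levels of few counts. With 2 states the distance reflects little beyond the 2 mean levels.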

How the data were processed

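For each of the 6 libraries the authors deposited a table of genes with expected counts, TPM, FPKM and lengths, in RSEM's columns per the file headers. DESeq2, Bowtie2, Bowtie and RSEM, and the builds mm10 and GRCm38, are named per the submitters' processing notes. Their roles were not given in the sources used here, nor were versions or strandedness. The deposited expected counts share out reads that match several genes, and the TPM values were deposited as levels per effective length that share 1 total in every library. The deposited length and effective length are other values per gene and library. FPKM was not used here.

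Of 54752 identifiers 54723 matched GENCODE M21 (GRCm38). Expected counts were rounded, filtered with filterByExpr (minimum count 10) and tested over 14726 genes with edgeR 4.0.16 (R 4.3.3): TMM factors, quasi-likelihood F-test, the state as the only term, Benjamini-Hochberg adjustment at 0.05. In simulated counts, where 195 of 14640 tested genes were changed up or down, the test recovered 92.8% of 2-fold and 100% of 4-fold changes. Most genes kept their level there by construction. The simulation therefore does not show how TMM scaling performs where 73.5% of genes are called. Every simulated gene also had the same dispersion, and the libraries were drawn independently. The recovered shares therefore do not tell how many such changes the test would find in the real libraries. SE is the fitted log2 fold change divided by the square root of F. limma 3.58.1 was used on log2(TPM + 1). Ratios of genes used TPM + 0.01 and exact two-sided permutation tests. A gene with no count in a group is given a bound from a floor of 3 counts over its 3 libraries. Libraries held 22496486 to 26314076 counts, no pair was identical, and adipocyte library 2 had 0.731% of counts in ribosomal RNA genes, against 0.0428% to 0.0706% in the others.

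Whether replicate numbers pair the libraries was checked. Deviations from group means correlated at 0.66, 0.30 and 0.27 for the libraries numbered 1, 2 and 3, above the limit of 0.1. Of the 6 unlike-numbered pairs 4 correlated below 0, but adipocyte 3 with preadipocyte 2 reached 0.45 and adipocyte 2 with preadipocyte 3 reached 0.16. The deviations of a state sum to 0 for each gene. These correlations are therefore not independent, and the values below 0 add no separate evidence of pairing. A fit blocked on the number was run as well.

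The 10 genes and all lists were chosen with earlier results of these data known. The text names by rule the 10 genes, Adipoq, Plin1, Pparg and Dlk1 as state checks, the largest rise, largest fall and most abundant gene of each of 5 lists, the most abundant of each of 6 marker lists, and the nearest gene by profile. Other genes of the lists, their neighbours and copies were named after their values were seen. Some listed genes are counted but not reported by name here. Plin1 and Pparg rose by 14.4 and 3.90 on the log2 scale. Alternatives were RLE, upper-quartile and total-count scaling, DESeq2 1.42.0, limma-voom, limma on TPM, no filters, the block, an effective length offset, and libraries left out.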

Additional observations from a re-analysis of the deposited data

How the results depend on the processing

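The 8 tested genes of the set were refitted under 18 alternatives, and Cd36, Lpl, Lmf1, Fabp4, Fabp5, Slc27a4 and Acsl1 kept their direction and call in all 18. The exception was Slc27a1, whose log2 fold change of 0.44 was 0.12 with total counts and reversed with limma on log2(TPM + 1) (-0.054), log2(TPM + 0.1) (-0.055) and log2(TPM + 1) without a filter on low values (-0.054, adjusted p = 0.637). Over its alternatives the adjusted p ran up to 0.637, and without single libraries it stayed called (0.35 to 0.59). The replicate block changed no call among the 8 (Slc27a1 0.45, edgeR adjusted p = 2.22e-05) and, in the lists, only that of Acsl4; it gave 5763 higher and 6212 lower genes in all, against 5252 and 5575.

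No gene of the set was lower in the fit as reported, and 1 was, Gpihbp1, with no low-count filter, with limma on log2(TPM + 1) without a filter, without both libraries numbered 1, and in 4 of the fits that leave out 1 library (0 to 1 lower genes), namely without preadipocyte library 1 (-2.04) or adipocyte library 1, 2 or 3 (-1.93, -1.96 and -1.49). The filter then lets it in, so its call depends on the filter.

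Over all genes, 3266, 3248 and 3452 were higher with limma on log2(TPM + 1), on log2(TPM + 0.1) and without the filter, and 8915 were lower without the filter. Among other lipid-binding proteins 2 were higher and 2 lower with no low-count filter, 2 higher and 3 lower with limma without the filter, and 1 to 2 lower without single libraries, where Crabp2 passed without preadipocyte library 3 or adipocyte library 1, 2 or 3. Furin and Zdhhc4 lost their calls without preadipocyte library 1 or 3 or adipocyte library 2 or 3, and with RLE factors, DESeq2 and no low-count filter, Furin also with the effective length offset (adjusted p = 0.229). Sel1l lost its call with upper-quartile factors (0.21), total counts (0.01) and limma on TPM, Scarb2 with total counts (0.06) and limma on TPM, and Acsl4 passed as lower without adipocyte library 3 (-0.46), with total counts (-0.63), with limma on log2(TPM + 1) (-0.79) and log2(TPM + 0.1) (-0.82), and without both libraries numbered 1 (-0.26). The cause was not tested. The ratios and shares moved by less than 1 SD with the deposited length, and the ratios also with another pseudocount. Depth limits Fabp3 and Gpihbp1, with 8.37 and 10 counts in adipocytes, against 9.18 and 42 in preadipocytes.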

Other observations

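The deposited length of some genes was shortest in the libraries numbered 1. Lengths differed between libraries for 11374 tested genes. For 23.6% of them the libraries numbered 1 had the shortest length, or tied for it, in both states, Lpl and Cd36 among them. Ties were counted for library 1, so the share without ties can be lower. For Cd36 the lengths were 2437, 2668 and 2631 bases in adipocytes, against 2564, 2677 and 2604 bases in preadipocytes. The median shift of library 1 against the mean of the other libraries was -0.0021 in adipocytes and -0.0029 in preadipocytes on the log2 scale. The pattern was noticed in the data and no test was made of it.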
